A study of Mus musculus with 30 samples.

Results

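DEAD and DEAH box helicases are the enzymes that rearrange RNA and RNA-protein complexes in nearly every step of gene expression, and their mRNAs were examined here in cultured mouse spermatogonial stem cells (SSCs). The helicase genes were chosen by name: every gene in the RNA-seq or SLAM-seq tables whose symbol starts with Ddx or Dhx followed by a digit was taken, with Ddx3x, Ddx3y, Ddx4 and Ddx6 set aside. The rule found 47 of 14558 genes. It uses the symbol and no measured value, but it was set with earlier results of these data known. RNA-seq gave an FPKM (reads scaled to transcript length and by a factor per library) for 45 of them, and SLAM-seq gave an mRNA half-life for 30. Both values were present for 28 helicases, 17 had an FPKM only, and Ddx46 and Dhx57 had a half-life only. A half-life was present for 62.2% of the helicases with an FPKM, where the share over all genes was 37.1%. These shares were not matched for abundance, and the helicases had a higher median FPKM than all genes.

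Helicases of both families bind RNA and use ATP to part short duplexes or to strip off proteins, and the families are named after the letters of one conserved protein motif. DEAD box members mostly open RNA locally and act as clamps, whereas DEAH box members move along a strand. Many act in every cell, in pre-rRNA processing, splicing and mRNA export, whereas Ddx25 and Ddx43 are best known from the testis.

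The study tagged the mouse Nanos2 gene, which encodes an RNA-binding protein that SSCs need for self-renewal, with a V5, Myc, PreScission, His and EGFP tag. One SSC line was Nanos2 TAG/+ (line 4) and the other Nanos2 TAG/TAG (line 5), both derived from postnatal testes of C57BL/6 and DBA/2J crosses and grown on mouse fibroblast feeders. Both lines carry the tagged allele, so no line without NANOS2 was compared. RNA-seq comprised 1 library of ribosome-depleted RNA per line, and SLAM-seq comprised 12 libraries per line, from 6 chase times between 0 and 1440 min with 2 technical replicates each. The 4 crosslinking libraries of the series were not analysed here. RNA for the TAG/+ library was extracted with QIAzol and that for the TAG/TAG library with Trizol, by the labels, so genotype, line and reagent cannot be told apart, and no difference between the lines has a replicate check. The sources disagree on this step: the labels give depletion of feeders before extraction, whereas the study's methods name cells purified by sorting and QIAzol alone, and its gate is one that separates SSCs from leftover feeder cells. The tables' columns carry short codes, and they were assigned to the lines by the genotype letters in those codes and in the table names.

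FPKM values were scaled to 10908790 reads in TAG/+ and 11738620 reads in TAG/TAG, whereas the reads recovered from the listed genes summed to 10931439 and 11627842. The scale is therefore not the plain read total. Reads of this number leave counting error small for all but the rarest helicase mRNAs. Of 14 measured genes of spermatogonial stem and progenitor cells all but Id4 (1.76 in TAG/+ and 1.59 in TAG/TAG) and Cdh1 (4.31 and 7.77) lay over the median FPKM of all genes in both libraries, with 7 higher and 7 lower in TAG/TAG and a median log2 difference of -0.02. Among them was Zbtb16, a transcription factor of undifferentiated spermatogonia, at an FPKM of 107 in TAG/+ and 102 in TAG/TAG, and Nanos2 was at 27.5 and 23.8. Markers of other cells differed between the libraries. Of 14 listed fibroblast genes 11 had an FPKM, none was listed at 0, 10 were higher in TAG/TAG, and their summed FPKM was 344 in TAG/+ and 434 in TAG/TAG. All 5 measured Sertoli cell genes of 7 listed were higher in TAG/TAG, with sums of 8.19 and 29.7, while 7 of 8 genes of differentiating spermatogonia were lower, with sums of 287 and 209. Star was the single measured Leydig cell gene of 6 listed, at 4.62 in TAG/+ and 1.2 in TAG/TAG. At least 2-fold higher in TAG/TAG were the fibroblast genes Col6a1 (1.24 in TAG/+ and 2.98 in TAG/TAG), Dcn (4.44 and 10.2), Thy1 (15.7 and 35.2) and Pdgfrb (0.66 and 6.75), the Sertoli cell genes Sox9 (2.19 and 4.49), Gata4 (0.643 and 2.35) and Wt1 (2.51 and 19.6), and the stem cell genes Ret (73.2 and 181), Etv5 (46.0 and 178) and Bcl6b (23.1 and 225), and among the genes of differentiating spermatogonia Sycp3 (4.59 and 0.632) was lower by more than that. The part of these cell types in the differences of helicase mRNAs was not tested, and in bulk RNA fewer cells of a type cannot be told apart from less RNA per cell.

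The 3′ UTRs of the helicases were searched for AUGAAAU with its variant AUGAAUU, and for AUUAAAU with its variant AUUAAUU, which are the 4 spellings of the word that the study examined in RNA bound by NANOS2, on the sense strand, with overlaps allowed. One coding transcript per gene was read from GENCODE M21 on GRCm38, and all 47 helicases matched. The 3′ UTRs were short, with a median of 499 nt, where that of 13063 genes with a value was 1050 nt. At least 1 of the words was present in 13 helicases (27.7%), where 38.7% of all genes held one. AUUUA was present in 55.3% of the helicases and 67.6% of all genes. Dhx36 and 4 other helicases held more than 1 word. Windows are shown for Dhx36 and Ddx28, whose mRNAs were at least 2-fold scarcer in TAG/TAG, and for Ddx1 and Ddx46, whose mRNAs were among the longest-lived. Each is written 5′ to 3′ with the word in capitals and with the position of the word in GRCm38.
Dhx36, chr3:62470253-62470259, minus strand: uauuaugcaaaAUUAAUUuucuguucaua
Dhx36, chr3:62470149-62470155, minus strand: auuuuuuaaaaAUGAAAUucuauuauuag
Dhx36, chr3:62469850-62469856, minus strand: agauugugaggAUUAAAUaugguaacaug
Dhx36, chr3:62468799-62468805, minus strand: guaccuuccuaAUUAAUUgaccuggaaaa
Dhx36, chr3:62468758-62468764, minus strand: auuuuaagucaAUUAAUUgcaaaguguau
Ddx28, chr8:106009698-106009704, minus strand: cugaaagcaugAUGAAUUguuuggagauu
Ddx1, chr12:13218734-13218740, minus strand: gcccaagagcaAUGAAAUcguccagcaaa
Ddx1, chr12:13216997-13217003, minus strand: gaauauauuuuAUGAAUUaaaauagaacu
Ddx46, chr13:55679701-55679707, plus strand: augauggaguuAUGAAUUuuccccuuuau
Ddx46, chr13:55679783-55679789, plus strand: guagaaagaugAUGAAUUugaagccaguu
All these words lie in the last exon of their gene. A match describes letters only.

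The helicase mRNAs as a group had a high FPKM. FPKM divides reads by the mean length of a gene's annotated transcripts, so levels of different genes depend in part on annotation. Their median FPKM was 43.7 in TAG/+ and 42.5 in TAG/TAG, beside 10.2 and 10.5 over all 13904 genes. In both lines 38 of the 45 helicases (84.4%) lay over the median of all genes, where the share over all genes was 45.7%, and 6 lay under it in both lines. Abundance spanned from Ddx60 at an FPKM of 0.646 in TAG/+ and 0.436 in TAG/TAG to Ddx5 at 665 and 632. The order of the helicases was close in both lines, with a Spearman's rho of 0.966 across the 45 genes, which share 2 libraries, beside 0.927 across all genes.

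**Figure D1:**
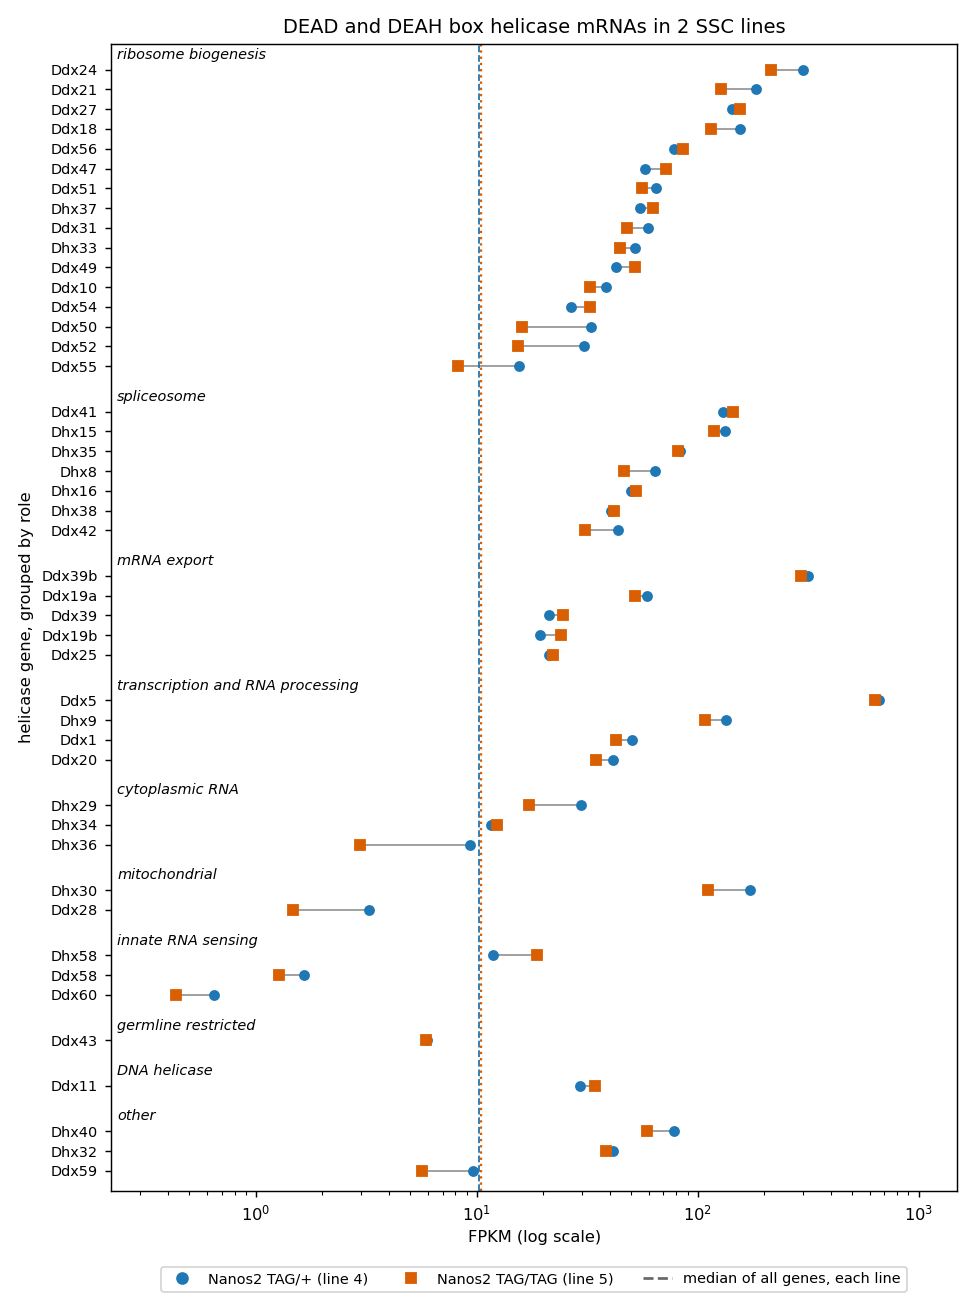
FPKM of the 45 helicase mRNAs on a log axis in the Nanos2 TAG/+ line (circles) and the Nanos2 TAG/TAG line (squares), 1 library each, grouped by role, with the median of all genes in each line as vertical lines. All but 1 of the 16 ribosome biogenesis helicases lie to the right of both medians in both lines, and Ddx58, Ddx60 and Ddx28 lie far to the left.

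Ribosome biogenesis helicases formed the largest group, with 16 genes, and act in the nucleolus on pre-rRNA or on the small nucleolar RNAs that pair with it. Their median FPKM was 56.3 in TAG/+ and 54.0 in TAG/TAG. Ddx24, a factor of the large ribosomal subunit, was the most abundant at 299.9 in TAG/+ and 215 in TAG/TAG. Ddx21, which couples rRNA transcription to processing, had an FPKM of 184 in TAG/+ and 127 in TAG/TAG. Ddx18 was at 156 and 114, but 55.9% of its 50-base words also occur in other annotated genes, mostly pseudogenes, so its level is uncertain. These 3 abundant mRNAs were all lower in TAG/TAG. Ddx27, which acts in 28S rRNA maturation, was at 142 in TAG/+ and 156 in TAG/TAG, and its relative Ddx54 was at 26.7 and 32.7. Unlike the preceding genes, both were higher in TAG/TAG. Ddx50, the nucleolar paralog of Ddx21, was the gene of the group that differed most between the lines, with an FPKM of 32.8 in TAG/+ and 16.0 in TAG/TAG. The remaining genes of the group lay between 15.5 (Ddx55) and 78.4 (Ddx56) in TAG/+ and between 8.24 (Ddx55) and 85.6 (Ddx56) in TAG/TAG. Ddx47 (57.7 in TAG/+, 71.8 in TAG/TAG), Ddx49 (42.5, 51.9) and Dhx37 (54.9, 62.9), which releases the U3 small nucleolar RNA from pre-rRNA, were higher in TAG/TAG, as was Ddx56. Ddx10 (38.3, 32.5), Ddx31 (59.7, 47.7), Ddx51 (64.8, 56.1), Ddx52 (30.5, 15.4) and Dhx33 (52.0, 44.4) were lower, as was Ddx55.

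Splicing helicases drive the rearrangements of the spliceosome, and the 7 with an FPKM all lay over the median of all genes in both lines. Ddx41, a protein of the catalytic spliceosome, had an FPKM of 129.8 in TAG/+ and 144 in TAG/TAG. Dhx15, which takes spent spliceosomes apart, was at 133 and 118. Dhx35, another spliceosome component, was nearly equal at 83.1 and 81.4. The helicases of the consecutive steps of activation, catalysis and mRNA release, Dhx16 (50.1 in TAG/+, 52.8 in TAG/TAG), Dhx38 (40.7, 41.8) and Dhx8 (63.8, 46.5), had like levels apart from a lower Dhx8 in TAG/TAG. Ddx42, which joins the U2 particle, was at 43.7 in TAG/+ and 30.8 in TAG/TAG.

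Among the export helicases the paralogs differed widely in FPKM. Ddx39b, which loads export factors onto spliced mRNA, had an FPKM of 315 in TAG/+ and 294 in TAG/TAG. Its paralog Ddx39 was at 21.3 and 24.6. Ddx19a, which releases export factors at the nuclear pore, was at 59.0 and 52.0, and Ddx19b at 19.2 and 24.1. These last values are uncertain, since 28.1% of the 50-base words of Ddx19a and 12.4% of those of Ddx19b occur in both genes. They also rest on mean annotated lengths of 1344 nt for Ddx19a and 4858 nt for Ddx19b. Before scaling by length Ddx19b had more reads, 1019 in TAG/+ and 1374 in TAG/TAG, beside 865 and 821 for Ddx19a. Ddx25, a testis helicase known for its role in maturing spermatids, was detected at 21.1 in TAG/+ and 22.1 in TAG/TAG.

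The most abundant helicase mRNA was that of Ddx5, a coregulator of transcription and microRNA processing, at an FPKM of 665 in TAG/+ and 632 in TAG/TAG; 14.6% of its 50-base words occur in other genes. Dhx9, a nuclear helicase that resolves double-stranded RNA and R-loops, was at 134 and 108. Ddx1, part of the tRNA ligase complex, was at 50.7 and 42.5, and Ddx20, a protein of the SMN complex that assembles spliceosomal particles, at 41.3 and 34.6. All 4 of these helicases were lower in TAG/TAG, with log2 differences between -0.07 and -0.32.

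Helicases of the cytoplasm and the mitochondrion held the 2 lowest differences, both of mRNAs that were scarcer in TAG/TAG. Dhx36, which unwinds G-quadruplexes in mRNA, had an FPKM of 9.29 in TAG/+ and 2.97 in TAG/TAG, from 288 and 99 reads. Dhx29, which helps ribosomes to scan structured leaders, was at 29.6 and 17.3, whereas Dhx34, a factor of nonsense-mediated decay, was at 11.6 and 12.4. Ddx28, which assembles the mitochondrial ribosome, had an FPKM of 3.24 in TAG/+ and 1.47 in TAG/TAG, from 80 and 39 reads. Dhx30, which has a related mitochondrial role, was far more abundant at 173 and 111.

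Helicases of innate RNA sensing were the rarest, with 1 exception. Ddx60 had 22 reads in TAG/+ (95% exact Poisson interval 13.8 to 33.3) and 16 reads in TAG/TAG (9.15 to 26.0). Ddx58, which encodes the RNA sensor RIG-I, was at an FPKM of 1.65 in TAG/+, resting on 29 reads, and 1.27 in TAG/TAG, resting on 24. At this depth no difference between the lines was detectable for either gene, with 95% exact binomial intervals of the ratio of 0.332 to 1.35 for Ddx60 and 0.429 to 1.37 for Ddx58. Dhx58, which encodes the RIG-I relative LGP2, was at 11.9 in TAG/+ and 18.8 in TAG/TAG, the largest positive difference of the 45 helicases, and its exons overlap Dhx58os on the other strand. Of 18 listed interferon-stimulated genes 11 had an FPKM, and 9 of these were higher in TAG/TAG, where 50.5% of all genes were. Of these 11 genes 1 was at least 2-fold higher, Zbp1 at 0.949 and 4.54, from 21 and 108 reads. At least 2-fold lower was Oasl2, at 114 and 50.7. The summed FPKM of the 11 genes was 234 in TAG/+ and 198 in TAG/TAG.

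The remaining helicases fell on no common pathway. Ddx43, known for its expression in testis and tumours, had an FPKM of 5.94 in TAG/+ and 5.91 in TAG/TAG. Ddx11, a DNA helicase of sister chromatid cohesion, was at 29.2 and 34.3. Dhx40 was at 78.1 and 59.1, Dhx32 at 41.3 and 38.3, and Ddx59 at 9.61 and 5.64.

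More helicase mRNAs were lower than higher in TAG/TAG. With differences taken as log2(FPKM + 0.1) in TAG/TAG minus TAG/+, 30 of 45 helicases (66.7%) were lower and 15 were higher, where 49.5% of all genes were lower and 50.5% higher. The median difference was -0.21 for the helicases and 0.01 for all genes. Few differences were large. At least 2-fold lower were Dhx36, Ddx28 and Ddx50, which is 6.67% of the helicases beside 9.59% of all genes. With a pseudocount of 1 in place of 0.1, Dhx36 alone was past 2-fold. None was at least 2-fold higher, where 13.5% of all genes were. With a 1.5-fold limit, 8 helicases were lower (17.8%, beside 19.4% of all genes) and Dhx58 alone was higher (2.22%, beside 22.8% of all genes). The shares over all genes were not matched for abundance. All genes had a lower median FPKM, 10.2 in TAG/+ beside 43.7 for the helicases, and low counts vary more between libraries. The part of abundance in these shares was not tested.

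Dhx36 (chr3:62468013-62507004 in GRCm38, minus strand) had a log2 difference of -1.61. Its TAG/TAG to TAG/+ ratio was 0.319, with a 95% exact binomial interval of 0.252 to 0.403 that covers counting error of these 2 libraries only. Ddx28 (chr8:106009621-106011882, minus strand) had a log2 difference of -1.09, with a ratio of 0.453 (0.301 to 0.672), and its single exon overlaps exons of Dus2 on the other strand. Ddx50 had a log2 difference of -1.03, with a ratio of 0.489 (0.429 to 0.557). The helicases next to the 2-fold limit were Ddx52, at -0.99, and Ddx55, at -0.90. The others past 1.5-fold were Ddx59 at -0.76, Dhx29 at -0.77 and Dhx30 at -0.63, and in the other direction Dhx58 at 0.66, with a ratio of 1.59 (1.27 to 1.99).

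The direction of the difference moved with the base composition of the transcripts. Across 12427 genes with a coding transcript in GENCODE M21, Spearman's rho between the GC content of the transcript and the log2 difference was 0.20, and across the 45 helicases it was 0.46. Over all genes the median difference was -0.16 in the bin of lowest GC content, of 10 bins with like numbers of genes, and 0.29 in the bin of highest GC content. Dhx36 had the lowest GC content of the helicases, at 39.96%, and Dhx34, Ddx54 and Ddx49, which were higher in TAG/TAG, had the highest, at 60.7%, 59.0% and 58.3%. After each difference was taken relative to the median of all genes in the same GC bin, the helicases' median was -0.16 and 75.6% were lower. By construction this step splits all genes of a bin evenly into higher and lower, and it was chosen after seeing the data. Dhx36 was then at -1.46, Ddx28 at -1.24 and Ddx50 at -0.85. GC content, reagent, line and genotype were not separated by this design, and the part of base composition in the single differences was not tested.

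**Figure D2:**
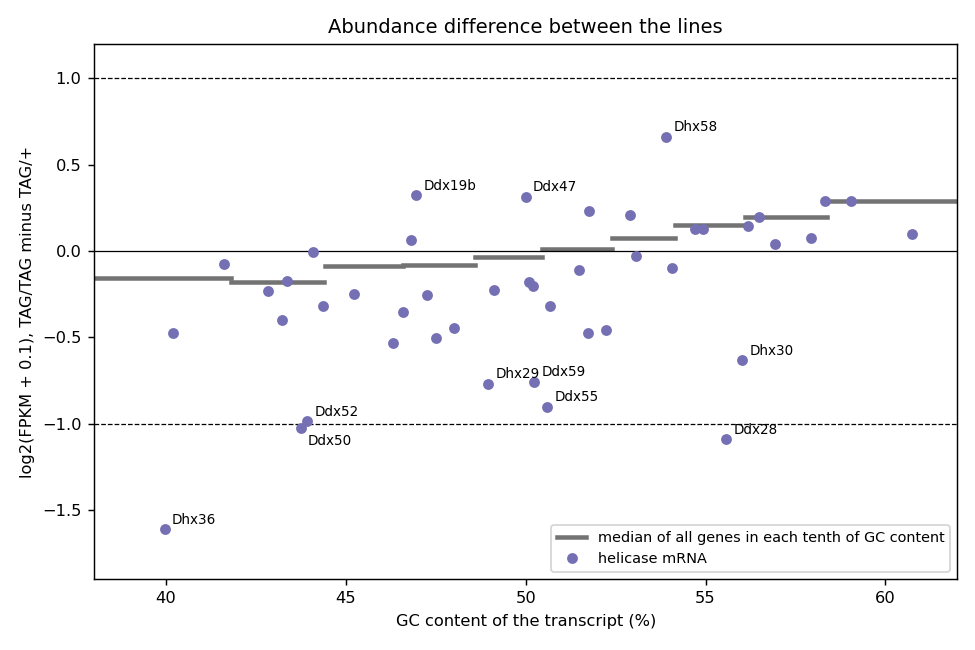
Log2 difference in FPKM between the lines (TAG/TAG minus TAG/+) against the GC content of the transcript for the 45 helicase mRNAs (points), with the median of all genes in each of 10 bins of GC content (grey bars) and the 2-fold limits (dashed). The grey bars lie at -0.16 and -0.18 in the 2 bins of lowest GC content and at 0.29 in the highest, Dhx36, Ddx28 and Ddx50 lie below the lower limit, and no point reaches the upper limit.

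Related genes outside the set gave these values. Of the helicases set aside by the rule, Ddx3x, a translation factor, had an FPKM of 64.5 in TAG/+ and 36.6 in TAG/TAG, and Ddx6, which works in mRNA decay and P-bodies, was at 46.9 and 27.1. Ddx4, the germ cell helicase Vasa, was at 31.0 and 41.4. Ddx3y was near the floor, with 16 reads in TAG/+ and 7 in TAG/TAG. Among 20 RNA helicases of other families with an FPKM, 10 were higher and 10 lower in TAG/TAG, and 3 were at least 2-fold lower, which were Eif4a1 (386 and 151), Tdrd9 (7.24 and 1.43) and Helz2 (2.62 and 0.565). Of 17 helicase cofactors with an FPKM, mostly G-patch and MIF4G domain proteins, 5 were higher and 12 were lower, and none passed 2-fold. Half-lives of these cofactors were at least 1.5-fold longer in TAG/TAG for Gpatch4 (157 and 255 min), Nom1 (149 and 243 min) and Sugp1 (995 and 1546 min), and shorter for Nkrf (176 and 94.1 min) and Eif4g3 (191 and 114 min). The set-aside helicases were within 1.5-fold, at 333 and 371 min for Ddx3x, 202 and 243 min for Ddx6, 498 and 483 min for Ddx4 and 89.5 and 111 min for Ddx3y.

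The long-lived helicase mRNAs lay outside ribosome biogenesis. The authors fitted 1 half-life per transcript and line, without an error, so values are given as deposited. Over the 30 helicases the median half-life was 247 min in TAG/+ and 252 min in TAG/TAG, beside 224 and 226 min over all 5806 transcripts. Long-lived, that is over the upper quartile of all transcripts in both lines (289 and 299.8 min), were 9 of 30 helicases (30%), where 19.1% of all transcripts were. Short-lived, that is under the lower quartile in both lines (162 and 159 min), were 2 helicases (6.67%), where 15.6% of all transcripts were. Over the median of all transcripts in both lines were 15 helicases (50%), and 7 (23.3%) were under it in both, where each share over all transcripts was 39.8%. Of the 13 ribosome biogenesis helicases with a half-life, none was long-lived and Ddx50 was short-lived. All 9 long-lived mRNAs were among the 17 helicases of other roles, whose pooling was not planned.

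**Figure D3:**
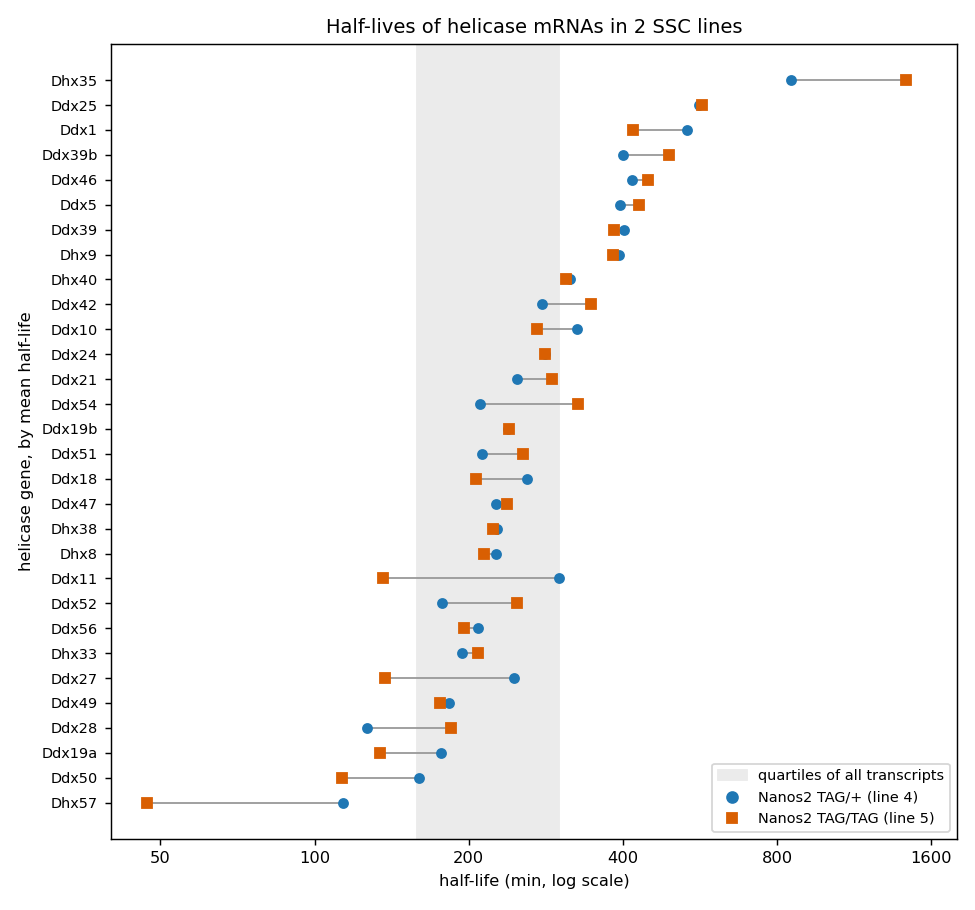
Half-lives of 30 helicase mRNAs in min on a log axis, in the Nanos2 TAG/+ line (circles) and the Nanos2 TAG/TAG line (squares), ordered by their mean, with the span from the lower to the upper quartile of all 5806 transcripts in grey (the lower of both lines' lower quartiles to the higher of their upper quartiles). The 9 long-lived mRNAs lie to the right of the grey span in both lines, and Ddx50 and Dhx57 lie at or to the left of it.

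The longest-lived helicase mRNA was that of Dhx35, at 851 min in TAG/+ and 1428.5 min in TAG/TAG, the latter near the last chase time of 1440 min. Ddx25, the testis helicase, had half-lives of 564 and 572 min. Ddx1 was at 534 min in TAG/+ and 418 min in TAG/TAG. Each of these mRNAs lasted longer than 88.6% of all transcripts or more in both lines. The export paralogs Ddx39 (402 and 385 min) and Ddx39b (399 and 492 min) had long half-lives at very different abundance. Ddx5 was at 395 and 429.7 min, Dhx9 at 394 and 383 min, Ddx46, a helicase of early spliceosome assembly, at 417 and 448 min, and Dhx40 at 315 and 310.0 min.

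The shortest-lived was the mRNA of Dhx57, at 114 min in TAG/+ and 47.1 min in TAG/TAG, with exons that overlap Morn2 on the other strand. Ddx50 followed, at 159.9 and 113 min. Ddx19a was at 177 and 134 min, Ddx28 at 127 and 185 min, and Ddx49 at 183 and 176 min. Of these mRNAs, Ddx50 and Ddx19a have a paralog with a half-life, and it was longer in both lines for each. Ddx21, paralog of Ddx50, was at 249 and 291 min, and Ddx19b, paralog of Ddx19a, was at 239 and 240.2 min, with the shared sequence given above.

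The other ribosome biogenesis helicases mostly had half-lives between the quartiles of all transcripts. Exceptions were Ddx10 in TAG/+, over the upper quartile, and in TAG/TAG Ddx54 (327 min), over it, and Ddx27 (137 min), under the lower quartile. By the mean of both lines Ddx10 was the longest of them, at 326 min in TAG/+ and 272 min in TAG/TAG. In TAG/TAG alone Ddx54, Ddx21 and Ddx24 were longer than Ddx10. Ddx24 was equal in the lines at 282 min. Ddx47 lay just over the median of all transcripts in both lines, at 226 and 237 min. Ddx18 (259 and 206 min), Ddx51 (212 and 255 min) and Ddx52 (177 and 248 min) lay on one side of it in TAG/+ and on the other in TAG/TAG. Ddx56 (209 and 196 min) and Dhx33 (194 and 208 min) lay under it in both lines. Median half-life was 212 min in TAG/+ and 237 min in TAG/TAG over these 13 genes, and 315 and 346 min over the 17 helicases of other roles. Of the splicing helicases, Ddx42 was at 278 and 346 min, Dhx8 at 226 and 214 min and Dhx38 at 227 and 223 min.

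Abundance and half-life were then read together, since over all transcripts half-life increased with FPKM. The medians in 10 bins of mean FPKM went from 149 to 339 min in TAG/+, and rho was 0.51 across 5152 transcripts. Across the 28 helicases with both values rho was 0.22. Bins of FPKM depend in part on mean annotated length, which was 6934 nt for Ddx25 and 1240 nt for Ddx27. The part of length was not tested. Compared with transcripts of its own FPKM bin, a helicase lay under the bin's median in both lines in 12 cases (42.9%, beside 38.1% of all transcripts) and over it in 11 (39.3%, beside 38%). The roles fell on different sides, in a split of ribosome biogenesis from all other roles that was not planned. Of the 13 ribosome biogenesis helicases 9 were under the median of their bin in both lines (69.2%) and Ddx10 alone was over it. Of the 15 helicases of other roles 3 were under it (20%) and 10 were over it (66.7%). Ddx24, Ddx21, Ddx18 and Ddx27, the most abundant of the ribosome biogenesis helicases, lay at the percentiles 29.5, 16.7, 44.4 and 36.2 of their bins in TAG/+ and 26.0, 29.9, 17.1 and 4.47 in TAG/TAG. Ddx25 lay at the percentiles 98.2 and 96.1, Ddx39 at 94.2 and 90.9, and Dhx35 at 99.4 and 99.2. Within FPKM bins 5 helicases (17.9%, beside 17.2% of all transcripts) stayed over the upper quartile in both lines, namely Ddx1, Ddx25, Ddx39, Dhx35 and Dhx9, and Ddx5, Ddx39b and Dhx40 did not. Under the lower quartile of their bin in both lines were Ddx19a, Ddx49 and Ddx50 (10.7%, beside 14.5% of all transcripts).

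**Figure D4:**
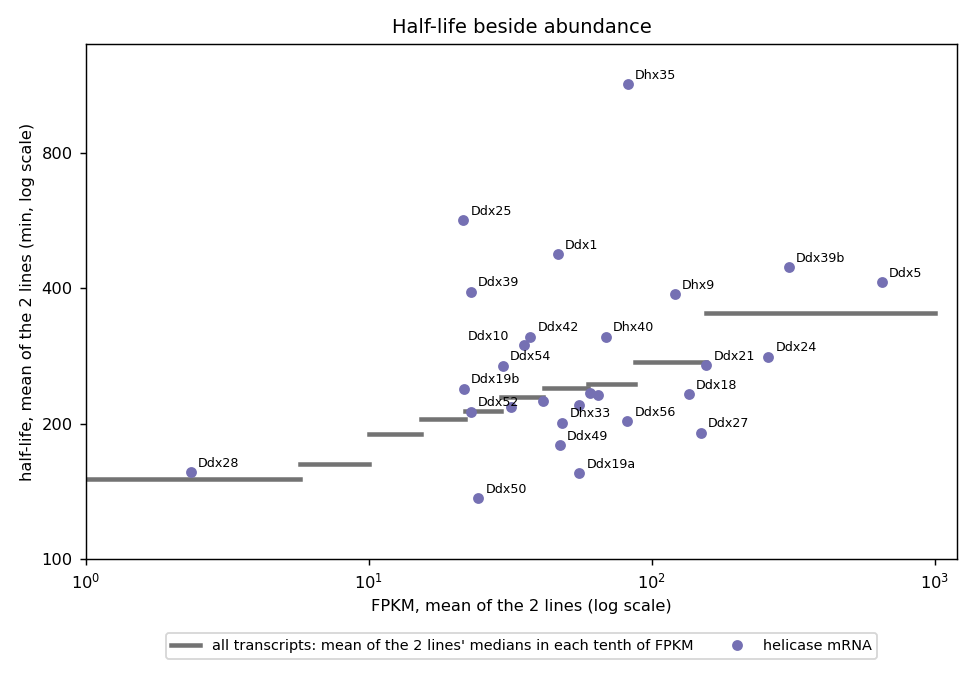
Half-life in min against FPKM, both as the mean of the lines and on log axes, for 28 helicase mRNAs (points, named where space allowed), with grey bars at the mean of both lines' median half-lives of all transcripts in 10 bins of FPKM. Most ribosome biogenesis helicases, such as Ddx27, Ddx18, Ddx49 and Ddx50, lie under the grey bars, and Ddx25, Ddx1, Ddx39 and Dhx35 lie well over them.

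Half-lives of the helicases were within 1.5-fold between the lines for all but 5 of the 30. They were longer in TAG/TAG for 15 helicases and shorter for 15, where 54.1% of all transcripts were longer and 45.9% shorter, and the median log2 difference was -0.01 for the helicases and 0.04 for all transcripts. At least 1.5-fold longer in TAG/TAG were Dhx35, by 0.75 on the log2 scale, and Ddx54, at 211 min in TAG/+ and 327 min in TAG/TAG (6.67% of helicases, beside 10% of all transcripts). At least 1.5-fold shorter were Dhx57, with a log2 difference of -1.27, Ddx11, at 300.4 and 136 min, and Ddx27, at 245 and 137 min (10%, beside 10.7% of all transcripts). These shares were at or below those of all transcripts. The 3 helicases whose FPKM was at least 2-fold lower did not share a direction in half-life. Ddx50 was shorter-lived in TAG/TAG and Ddx28 longer-lived, and Dhx36 had no half-life.

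The same words stood in 3′ UTRs of mRNAs that were scarcer in TAG/TAG, such as that of Dhx36, and of mRNAs with long half-lives in both lines, such as those of Ddx1 and Ddx46, while Ddx50 held none. The 10 helicases with a word and a half-life had a median of 263 min in TAG/+ and 265 min in TAG/TAG, and the 20 without a word had 236 and 252 min. The median log2 difference in FPKM was -0.36 for the 12 helicases with a word and an FPKM and -0.11 for the 33 without a word. The words are made almost only of A and U. Over all genes the median difference was -0.16 in the bin of lowest GC content. These 2 groups of helicases were not matched for GC content or 3′ UTR length, the same split was not made over all genes, and the part of the words was not tested. Across the 30 helicases rho between 3′ UTR length and half-life was 0.35, and across 5774 transcripts it was -0.28. At least 1 annotated transcript with a retained intron was present for 76.6% of the helicase genes and 55.6% of all coding genes with a value, and a transcript marked for nonsense-mediated decay for 27.7% and 27.0%.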

How the data were processed

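RNA-seq values of 1 library per line were deposited by the authors as FPKM for 13904 genes. The submitters' processing notes name kallisto and DESeq2, with no versions, and the annotation is not given in the sources used here. Whole reads were recovered by multiplying FPKM by the mean transcript length in GENCODE M21. This gave whole numbers within 0.02 for 100% of 13867 genes with a length, and the step was tested on simulated data. The recovered reads may be rounded estimates and not reads counted directly. Whether counting used the strand is not given, so the FPKM of helicases whose exons overlap a gene on the opposite strand is uncertain. Such overlaps were found for 11 helicases, of which Dhx57 has no FPKM. Half-lives in minutes were computed by the authors with SlamDunk from T to C conversions, scaled to the start of the chase, with technical replicates collapsed and a first-order decay fitted by nls. They carry no error or depth.

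With 1 library or fit per line no test was run and no p-value is given. Differences used log2(FPKM + 0.1), and limits were 2-fold for FPKM and 1.5-fold for half-life. Background shares were counted over all genes with the same value. Intervals are exact (95%), cover counting error only and leave out error in assigning reads to genes. Sequence shared with other genes was counted in 50-base words of annotated transcripts. The helicases, role lists and rules were chosen with earlier results of these data known. Every helicase was to be named with its values, and other genes by counts, with values for those past the limits. Protein letters were not used here. Alternatives were a pseudocount of 1, an FPKM of at least 1, at least 50 reads, centring, half-lives up to 540 min and other limits. Centring by GC content and leaving out 4 helicases with over 10% shared words were chosen after seeing the data. Pooling the helicases of roles other than ribosome biogenesis was not planned. Analyses used Python 3.11.15, pandas 2.3.3 and SciPy 1.17.1.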

Additional observations from a re-analysis of the deposited data

How the results depend on the processing

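Of 50 alternative values, 42 stayed within the spread of the medians, within 1.5 times the counts or, for percents, within a fixed allowance. With a pseudocount of 1, only Dhx36 was at least 2-fold lower in TAG/TAG, so that the count was 1. With a 1.5-fold limit for FPKM, 8 helicases were lower and 1 was higher. Centring within GC bins left 2 helicases at least 2-fold lower. With wider outer classes, the lowest and highest 33.3% of transcripts in place of quartiles, 4 helicases were short-lived in both lines. Among half-lives up to 540 min in both lines, 1 helicase was short-lived and 1 was at least 1.5-fold longer in TAG/TAG. With a 2-fold limit for half-life, 0 were longer. With quartiles taken within bins of FPKM, 5 helicases were long-lived. Leaving out the 4 helicases with shared sequence gave a median FPKM difference of -0.23. The alternative restricted to proteins with the helicase letters was not run. No paired analysis was possible because no comparison between the lines rests on a test, with 1 library or fit per line. Depth limits the values of Ddx60 and Ddx58 most, and depth behind the half-lives is unknown.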
